A study of Mus musculus with 34 samples.

Results

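Receptors for the monoamines (serotonin, dopamine and noradrenaline) and for acetylcholine were examined in the dorsal hippocampus of trained and untrained mice. Protein-coding genes were taken from the bulk RNA sequencing (RNA-seq) count table by their mouse gene symbols, which gave 49 of the 54532 rows. They comprised 14 serotonin receptor genes (*Htr*), 5 dopamine receptor genes (*Drd*), 9 noradrenaline receptor genes (*Adra1*, *Adra2* and *Adrb*), 5 muscarinic acetylcholine receptor genes (*Chrm*) and 16 nicotinic acetylcholine receptor subunit genes (*Chrn*). Within the set, genes were taken by symbol alone, with no cutoff on a measured value. The set itself was chosen with earlier results of these data known.

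Bulk RNA-seq covered 8 samples, 4 from homecage controls and 4 from mice trained in spatial object recognition (SOR), a task in which mice explore a set of objects placed in an arena. All animals were adult male C57BL/6J mice of 2 to 3 months, with no genetic alteration or drug named for either group, and only males were sampled. Trained mice were euthanized 1 h after the training and homecage mice were taken without training, so the comparison included the arena, the objects and the handling of that day as well as learning, and these cannot be told apart. The spatial and single-nucleus samples of the study were not analysed here. Total counts ran from 51406011 to 81525977 per sample, and a count of 0 allowed a level of up to 0.0377 to 0.0589 CPM (read counts scaled to the library size) by counting error alone. Marker genes of the hippocampal fields were present in all libraries, with a summed level of 257 to 293 CPM for 5 CA1 genes and 399 to 480 CPM for 6 dentate granule cell genes. The dissections also carried markers of neighboring structures, and the 10 choroid plexus markers varied most, from 33.3 to 4180 CPM in sum.

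The cell bodies that release these transmitters lie almost wholly outside the hippocampus, in the raphe nuclei, the locus coeruleus, the midbrain and the medial septum, and their axons reach every hippocampal layer. All the receptors are coupled to G proteins except the nicotinic receptors and the serotonin receptor built from *Htr3a*, which are ion channels made of several subunits. Receptors coupled to Gs raise cyclic AMP, those coupled to Gi/o lower it, and those coupled to Gq/11 activate phospholipase C. In the hippocampus these receptors set the excitability of pyramidal cells and interneurons and are known to gate synaptic plasticity and memory.

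No receptor gene passed the test for a difference between SOR and homecage. With edgeR's quasi-likelihood test and Benjamini-Hochberg adjustment over 22018 genes, 0 of the 38 receptor genes abundant enough to be tested had an adjusted p under 0.05, where 0.309% of all genes tested passed, with 60 genes (0.273%) higher and 8 (0.0363%) lower after SOR, and 0.173% passed with a fold above 1.4 as well. At an unadjusted p under 0.05 there were 2 receptor genes, or 5.26% of those tested against 10.1% of all genes. They were *Chrm4*, higher after SOR as were 4.54% of all genes at that level, and *Drd1*, lower as were 5.51%. DESeq2 and limma-voom also called 0 receptor genes at the adjusted threshold, beside 1.98% and 0.286% of all genes. At an unadjusted p under 0.05 they gave 3 and 2 receptor genes, beside 9.96% and 10.5% of all genes. Fits with 1, 2 and 3 factors for variation among replicates (RUVs), run with edgeR's likelihood ratio test, gave 4, 5 and 4 of the 38. The shares of all genes there were 9.73%, 11.9% and 11.6%, so a lower share among receptor genes did not hold in every fit. Of the 38 genes, 18 were higher and 20 lower after SOR, with a median log2 fold change of -0.00 beside -0.02 for all genes tested. In whole tissue a smaller number of cells of a type and less RNA per cell cannot be told apart.

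Receptor levels were compared between genes per kilobase (kb) of exon, since long messages collect more reads. *Chrm1*, the Gq/11-coupled M1 receptor of hippocampal pyramidal cells, had the highest level at 19.6 CPM per kb ± 0.977 (SD, n = 8), and its lowest library stood above the highest library of every other receptor gene. It alone made up 18.8% of the summed level per kb of the 49 genes. Next came *Chrnb2*, the common β subunit of brain nicotinic receptors, at 7.94 CPM per kb, *Chrm3*, the other abundant Gq/11-coupled muscarinic receptor, at 7.34, *Adra1d*, an α1 receptor, at 6.81, and *Htr1a*, the inhibitory Gi/o-coupled serotonin receptor, at 6.49. Each of these overlapped its neighbor in this order, so their ranks were not separated by the spread over libraries. All *Htr1a* libraries, at 6.09 to 6.88, stood above all libraries of *Adra2c*, a Gi/o-coupled α2 receptor, at 5.01 to 5.61. Below them, *Chrna7* (4.64), *Chrm4* (4.39), *Htr4* (4.29) and *Drd5* (4.09 CPM per kb) formed a row of overlapping ranges. The gene models differ in how much untranslated sequence they hold, with 3 of 1440 exon bases for *Chrm4*, 3 of 1599 for *Chrm5* and 213 of 1899 for *Adra1d* but 3221 of 4484 for *Htr1a*, so the ranks of these genes per kb depend on the models.

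**Figure D1:**
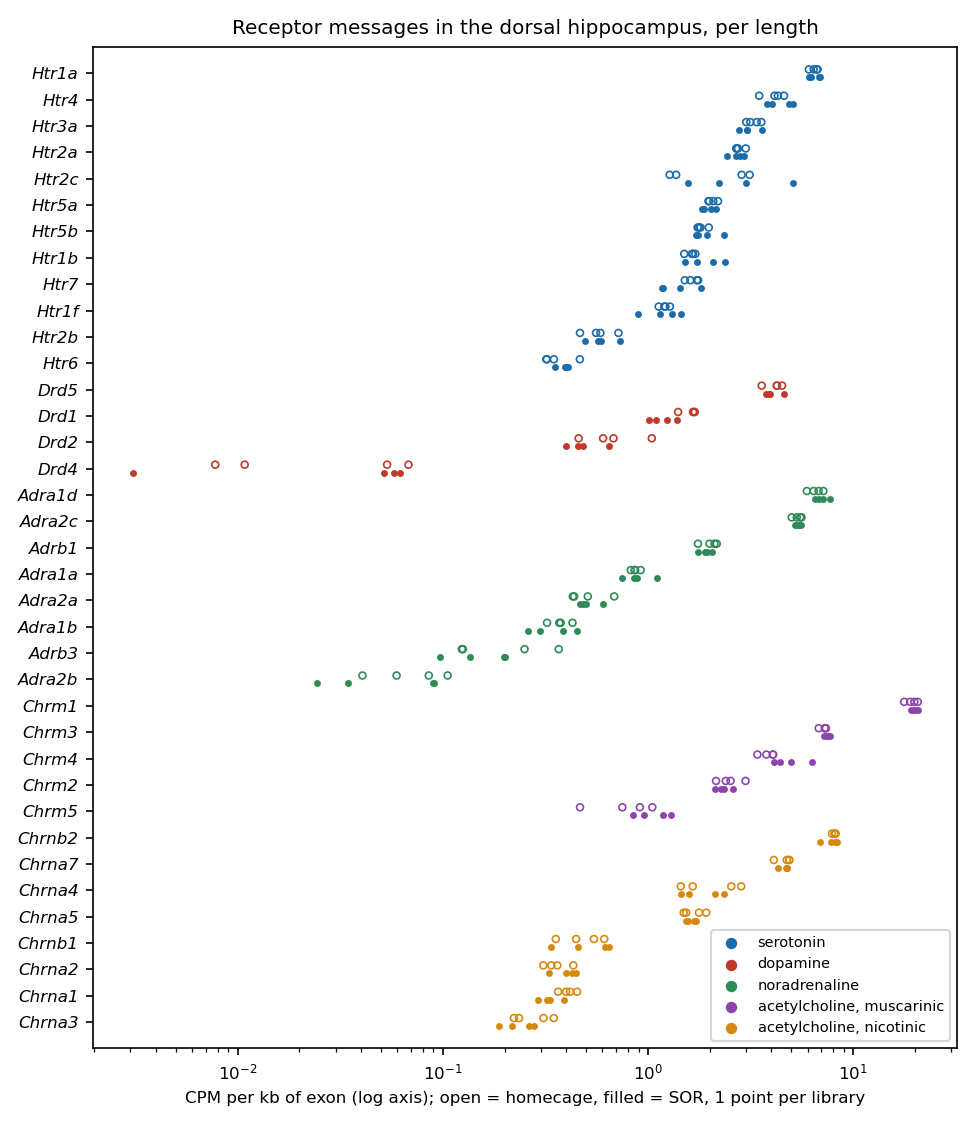
Level of 37 of the 38 tested receptor genes in CPM per kb of exon on a log axis, grouped by transmitter, with open points for the 4 homecage libraries and filled points for the 4 SOR libraries. *Chrm1* lies to the right of every other gene at 17.7 to 20.7 CPM per kb, and open and filled points intermix for nearly all genes.

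By transmitter, muscarinic receptors carried 33.3% of the summed level per kb, serotonin receptors 27.6%, nicotinic subunits 17.2%, noradrenaline receptors 16% and dopamine receptors 5.92%. By coupling, Gq/11 receptors carried 40.1%, Gi/o receptors 25.8%, ion channel subunits 20.3% and Gs receptors 13.8%. The largest shares were thus muscarinic and Gq/11-coupled, both led by *Chrm1*. None of these shares separated the groups: the dopamine share was 6.32% ± 0.317 (SD, n = 4) in homecage and 5.53% ± 0.373 in SOR, with overlapping libraries.

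The 11 genes too low to be tested were *Htr1d*, *Htr3b*, *Drd3*, *Chrna6*, *Chrna9*, *Chrna10*, *Chrnb3*, *Chrnb4*, *Chrnd*, *Chrne* and *Chrng*. They included the γ, δ and ε subunits of the muscle receptor, of which *Chrnd* was at 0 in all 8 libraries. Among nicotinic subunits the spread of levels was wide even between neighbors in the genome. *Chrna5*, *Chrna3* and *Chrnb4* sit side by side on chromosome 9 (GRCm38, chr9:54980880-55048779), where *Chrna5*, an accessory subunit, stood at 1.65 CPM per kb, *Chrna3* at 0.258 and *Chrnb4* at 0.0179. *Htr3a* and *Htr3b*, which encode partners in one serotonin-gated channel, also lie close together on that chromosome, and *Htr3a* stood at 3.20 CPM per kb where *Htr3b* was at 0.00217. The medial habenula, a neighbor rich in *Chrna3* and *Chrnb4*, was followed by 6 marker genes with a sum of 53.5 to 61.0 CPM in homecage and 51.9 to 59.4 CPM in SOR. Most of this sum came from *Nwd2*, at 45.8 CPM, and *Lrrc55*, at 8.02 CPM, while *Tac2* was at 1.24, *Gpr151* at 1.16 and *Gng8* at 0.586 CPM, and the defining factor *Pou4f1* was at 0 in 4 of the 8 libraries. Of the 5 tested markers 4 were lower, with a median of -0.06 and 0 called. Its part in the nicotinic levels was not tested.

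The serotonin receptors had 12 genes tested, with log2 fold changes of -0.24 to 0.47 and a median of 0.02. *Htr1a*, the highest per kb, measured 27.3, 28.8, 30.1 and 29.8 CPM in homecage and 30.8, 30.5, 27.4 and 28.1 CPM in SOR. The groups covered the same range, and the log2 fold change was 0.01 with a 95% interval of -0.12 to 0.14. A pair of Gs-coupled receptors known for promoting cyclic AMP signaling in the hippocampus, *Htr4* and *Htr7*, had log2 fold changes of 0.10 (interval -0.15 to 0.35) and -0.24 (interval -0.55 to 0.08). *Htr1b*, a presynaptic Gi/o receptor, ran from 7.10 to 8.04 CPM in homecage and from 7.12 to 11.2 CPM in SOR, with a log2 fold change of 0.24 (adjusted p = 0.578, edgeR), or 0.13 without SOR replicate 3. The antisense transcript D430036J16Rik covers 18.0% of the *Htr1b* exon bases on the opposite strand. *Htr2a*, the cortical Gq/11 serotonin receptor, was at 15.6 CPM ± 0.784 and 15.3 CPM ± 1.24 (SD, n = 4 each), a log2 fold change of -0.04.

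*Htr2c* had the largest positive fold change of all the receptor genes and the widest scatter of those above 2 CPM. This Gq/11-coupled receptor is best known for its very high level in the choroid plexus epithelium, which makes cerebrospinal fluid. It measured 29.2, 12.8, 11.9 and 26.7 CPM in homecage and 47.5, 28, 20.8 and 14.7 CPM in SOR. Both groups held high and low libraries and overlapped widely, and the within-group coefficient of variation was 49.8%, beside 2.53% from counting alone. The log2 fold change was 0.47 (95% interval -0.36 to 1.30, adjusted p = 0.739, edgeR). The summed level of the 10 choroid plexus markers was 1150, 33.3, 72.6 and 935 CPM in the same homecage libraries and 4180, 937, 839 and 48.3 CPM in the SOR libraries. The 3 libraries lowest in these markers were also the 3 lowest for *Htr2c*, and SOR replicate 1 was the highest for both. All 10 markers were detected and had positive fold changes, with a median of 1.23 on the log2 scale, and 0 passed the adjusted threshold. Without SOR replicate 1 the log2 fold change of *Htr2c* was 0.073. With the choroid plexus level as a covariate, a fit chosen after the values were seen, it was 0.08 (adjusted p = 0.905, edgeR). The same fit moved *Drd1* from -0.44 to -0.38, *Drd2* from -0.49 to -0.63 and *Drd4* from 0.30 to 1.07. The part of choroid plexus tissue in the *Htr2c* values was not tested.

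**Figure D2:**
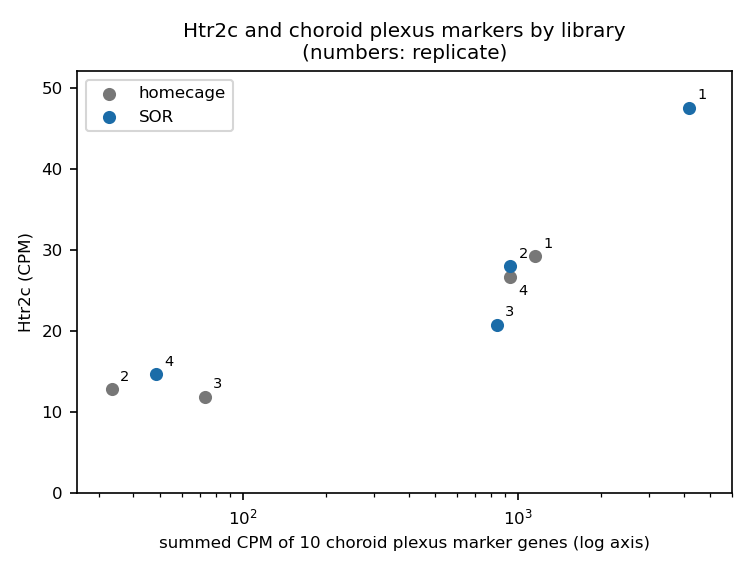
*Htr2c* in CPM against the summed CPM of 10 choroid plexus marker genes on a log axis, 1 point per library with its replicate number, gray for homecage and blue for SOR. The 3 libraries with a marker sum of 33.3 to 72.6 CPM had 11.9 to 14.7 CPM of *Htr2c*, and SOR replicate 1 had 4180 and 47.5 CPM.

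Dopamine receptors had the lowest median of the transmitter groups, -0.24 on the log2 scale over 4 tested genes. *Drd1* (ENSMUSG00000021478, GRCm38 chr13:54051183-54055705, minus strand) encodes the Gs-coupled D1 receptor, which in the hippocampus is found on subsets of principal cells and interneurons. It measured 6.14, 6.02, 6.08 and 5.09 CPM in homecage and 3.99, 3.66, 4.49 and 5.05 CPM in SOR. All SOR libraries lay below all homecage libraries, narrowly so between homecage replicate 4 and SOR replicate 4. The means were 5.83 CPM ± 0.500 and 4.30 CPM ± 0.609 (SD, n = 4 each). The log2 fold change was -0.44 (SE 0.123, 95% interval -0.71 to -0.17), and the difference did not pass the adjusted threshold (adjusted p = 0.233, edgeR). An exact two-sided permutation test over the 70 assignments gave p = 0.0286, the smallest it allows with 4 against 4. Any gene with non-overlapping groups gets this p, so it restates the separation and is not separate support. Non-overlapping groups were seen for 2 of the 38 receptor genes and for 6.95% of all genes tested, 2.99% with SOR higher and 3.96% with SOR lower. The adjusted p ranged from 0.0532 with DESeq2 to 0.422 with the replicate block over the other ways of processing the counts, and from 0.179 to 0.493 when 1 sample was left out.

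*Drd5*, the other Gs-coupled dopamine receptor and the dopamine receptor with the highest level per kb, measured 11.3, 13.4, 14.2 and 13.4 CPM in homecage and 14.5, 12.4, 11.8 and 12.3 CPM in SOR. The groups overlapped, with a log2 fold change of -0.03 (95% interval -0.24 to 0.18), although the antisense transcript Gm26560 shares 48.6% of the *Drd5* exon bases on the opposite strand. The ratio of *Drd1* to *Drd5* CPM, examined after the values were seen, was 0.451 ± 0.0699 in homecage and 0.341 ± 0.0655 in SOR (SD, n = 4 each), with overlapping libraries and p = 0.0857 by an exact two-sided permutation test. *Drd2*, a Gi/o-coupled dopamine receptor, measured 2.66, 1.17, 1.54 and 1.73 CPM in homecage and 1.23, 1.16, 1.64 and 1.01 CPM in SOR. Its log2 fold change of -0.49 (interval -1.05 to 0.06, adjusted p = 0.549, edgeR) leaned on homecage replicate 1 and was -0.23 without it. *Drd4*, at 0.0104 to 0.230 CPM, had an interval of -1.41 to 2.01, and *Drd3* was too low to test. The striatum, which holds far more D1 and D2 receptor message than the hippocampus, had a summed level over 8 marker genes of 123 to 140 CPM in homecage and 118 to 138 CPM in SOR. Most of it came from *Pde10a*, at 85.8 CPM, and *Ppp1r1b*, at 28.8 CPM, while *Adora2a* was at 0.710, *Gpr6* at 0.577 and *Ido1* at 0.105 CPM. Of its 7 tested markers 5 were lower, with a median of -0.07 and 0 called, and *Rgs9* was lower without overlap, as *Drd1* was, at 9.03 CPM ± 0.426 and 8.11 CPM ± 0.507 (SD, n = 4 each). Its part in the *Drd1* and *Drd2* values was not tested.

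The muscarinic receptors had a median log2 fold change of 0.05 over 5 genes. *Chrm1* measured 115, 123, 134 and 129 CPM in homecage and 124, 127, 130 and 134 CPM in SOR. These overlapped closely, and the 95% interval of its log2 fold change, -0.07 to 0.15, ran from a 4.87% lower to an 11% higher level after SOR. *Chrm3* was as tight, at 45.0 CPM ± 1.69 and 46.7 CPM ± 1.33 (SD, n = 4 each), with an interval of -0.04 to 0.15. *Chrm2*, the Gi/o-coupled autoreceptor of cholinergic terminals and a receptor of interneurons, had a log2 fold change of -0.11 (interval -0.34 to 0.12). *Chrm5*, at 0.746 to 2.06 CPM, had 0.42 (interval -0.11 to 0.95), or 0.24 without homecage replicate 1.

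*Chrm4* (ENSMUSG00000040495, GRCm38 chr2:91927249-91928688, plus strand) encodes the other Gi/o-coupled muscarinic receptor, M4. It measured 5.85, 5.44, 4.92 and 5.87 CPM in homecage and 6.35, 5.90, 9.06 and 7.16 CPM in SOR. All SOR libraries lay above all homecage libraries, with SOR replicate 2 just above homecage replicate 4 and SOR replicate 3 well apart from the rest. The means were 5.52 CPM ± 0.445 and 7.12 CPM ± 1.39 (SD, n = 4 each), and the log2 fold change was 0.37 (SE 0.137, 95% interval 0.06 to 0.67, adjusted p = 0.400, edgeR). The exact two-sided permutation test again gave its smallest p of 0.0286, as it must for non-overlapping groups. Without SOR replicate 3 the log2 fold change was 0.23. Between the paired Gi/o receptors, the ratio of *Chrm4* to *Chrm2* CPM was also examined after the values were seen. It was 0.365 ± 0.0341 in homecage and 0.501 ± 0.0665 in SOR (SD, n = 4 each), and the groups did not overlap (exact two-sided permutation p = 0.0286). The ratio holds the *Chrm4* values that had already separated the groups, so its p is not separate support. The summed levels of all 17 marker lists overlapped between SOR and homecage, and the lists held 0 called genes. A few abundant genes made up most of some sums. The part of cell types or neighboring tissue in the *Drd1* and *Chrm4* values was not tested. Among the 113 tested marker genes, 3 (2.65%) had groups that did not overlap, fewer than the 6.95% of all genes tested. All 3 were lower in SOR, as were 3.96% of all genes. They were *Opalin* of oligodendrocytes at a log2 fold change of -0.50 (adjusted p = 0.164, edgeR), *Cldn5* of endothelium at -0.30 (adjusted p = 0.199, edgeR) and the striatal *Rgs9* at -0.16. The 8 endothelial markers were split, with 4 higher and 4 lower after SOR and a median log2 fold change of -0.01. The 8 oligodendrocyte markers were all lower after SOR (median log2 fold change -0.17), and their summed levels were 5250 to 5720 CPM in homecage and 4300 to 5600 CPM in SOR, and their part in these results was not tested.

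**Figure D3:**
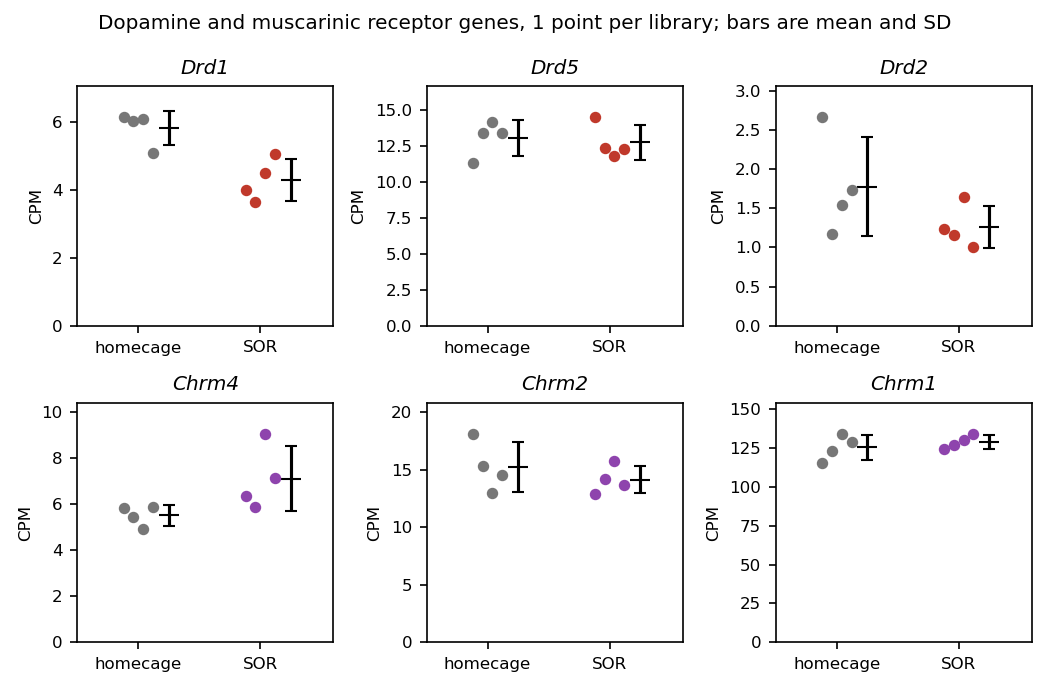
CPM of *Drd1*, *Drd5*, *Drd2*, *Chrm4*, *Chrm2* and *Chrm1*, 1 point per library, gray for homecage and colored for SOR, with the mean and SD of 4 libraries as a bar and each axis starting at 0. *Drd1* points were lower in SOR and *Chrm4* points higher without overlap, while the other 4 genes overlapped.

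The sequences upstream of these 2 genes are shown because they were the only receptor genes whose groups did not overlap. They come from RefSeq on GRCm38.p6, 5′ to 3′ in the direction of the gene, and capitals would mark a match to any of 5 motifs searched on both strands. The motifs were the cyclic AMP response element TGACGTCA, the AP-1 site TGACTCA, the EGR sites GCGTGGGCG and GCGGGGGCG, the NR4A site AAAGGTCA and the TATA box TATAAA. Neither sequence holds a match. The *Drd1* stretch of 203 bases at chr13:54055706-54055908 (minus strand) has 62.6% G or C and abuts the annotated gene, and the *Chrm4* stretch of 250 bases at chr2:91921939-91922188 (plus strand) has 70.0% and ends 5060 bases before the gene model that was counted.
Drd1: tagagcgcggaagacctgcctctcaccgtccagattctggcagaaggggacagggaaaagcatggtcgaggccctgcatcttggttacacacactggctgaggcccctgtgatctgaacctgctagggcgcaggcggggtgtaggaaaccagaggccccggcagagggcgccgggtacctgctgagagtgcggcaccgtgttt
Chrm4: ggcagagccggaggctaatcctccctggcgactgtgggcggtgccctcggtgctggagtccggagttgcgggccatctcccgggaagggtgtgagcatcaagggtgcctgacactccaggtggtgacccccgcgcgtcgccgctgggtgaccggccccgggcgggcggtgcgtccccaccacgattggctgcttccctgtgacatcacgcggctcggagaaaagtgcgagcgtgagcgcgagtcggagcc

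RefSeq promoters were found for 37 of the 49 genes, 42 promoters in all, and the 250 bases before each start were searched. The cyclic AMP response element was in 0 of the 42 and in 1.55% of all 32851 promoters. The AP-1 site was in 2, those of *Adra1b* and *Chrna1*, or 4.76% against 4.46% of all. The EGR sites were in 2, those of *Chrna7* and *Htr7*, or 4.76% against 3.06%. The NR4A site was in 0 against 1.34%, and the TATA box was in 2, *Adra2a* and *Chrnb1*, against 12.4% of all promoters. These matches are descriptions of letters in short windows and say nothing of the factors.

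Noradrenaline receptors were all 9 tested and had a median log2 fold change of -0.00. *Adra1d*, the highest per kb, measured 11.3, 12.2, 12.9 and 13.6 CPM in homecage and 12.4, 14.6, 13.6 and 12.9 CPM in SOR, with overlapping groups and a log2 fold change of 0.09 (interval -0.09 to 0.28). *Adra2c* was among the least variable receptor genes, with a within-group coefficient of variation of 4.06%, and its interval was -0.13 to 0.14. The β1 receptor gene *Adrb1*, whose product couples to Gs and is known for its part in late plasticity, was at 6.78 CPM ± 0.615 and 6.46 CPM ± 0.409 (SD, n = 4 each), a log2 fold change of -0.07 with an interval of -0.29 to 0.15. The widest differences were in the least abundant genes, *Adrb3* at -0.42 and *Adra2b* at -0.29, with intervals of -1.27 to 0.43 and -1.32 to 0.74, and they were -0.041 without homecage replicate 3 and -0.0061 without SOR replicate 1, respectively.

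Nicotinic subunits had 8 of 16 genes tested and a median of -0.05. *Chrnb2* measured 68.3, 66.1, 68.0 and 68.9 CPM in homecage and 57.9, 65.1, 70.1 and 68.2 CPM in SOR. The groups overlapped with SOR replicate 1 lowest, and the log2 fold change was -0.05 (interval -0.18 to 0.07). The Adar gene covers 16.3% of its exon bases on the opposite strand. *Chrna7*, the subunit of the homomeric, calcium-permeable receptor, was at 21 CPM ± 1.69 and 20.8 CPM ± 1.05 (SD, n = 4 each), with an interval of -0.17 to 0.15. *Chrna4*, the usual partner of *Chrnb2*, scattered more, from 7.26 to 14.3 CPM in homecage and from 7.26 to 11.8 CPM in SOR, with a within-group coefficient of variation of 28.5% beside 3.96% from counting. *Chrna1*, a muscle-type subunit at 1.63 CPM, had a log2 fold change of -0.29 (interval -0.60 to 0.02, adjusted p = 0.518, edgeR).

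**Figure D4:**
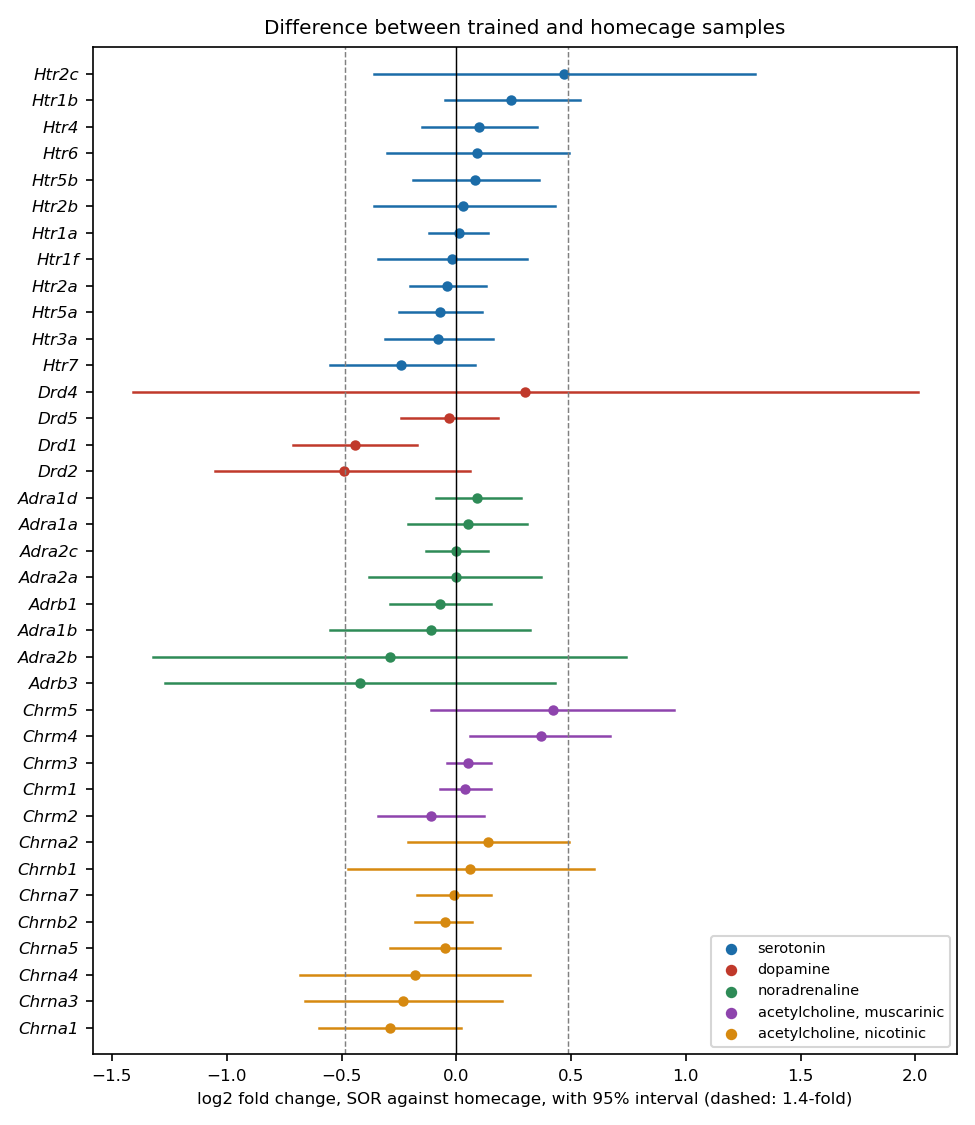
Log2 fold change of SOR against homecage for 37 of the 38 tested receptor genes, colored by transmitter, with 95% intervals from the edgeR fit and dashed lines at 1.4-fold. The intervals of *Drd1* and *Chrm4* exclude 0, and 20 lie wholly between the dashed lines.

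How small a difference could have been seen varied with abundance. The 95% interval lay within 1.4-fold in both directions for 20 of the 38 genes: 8 of 12 for serotonin, 5 of 9 for noradrenaline, 3 of 5 for the muscarinic group, 3 of 8 for the nicotinic group and 1 of 4 for dopamine, which was *Drd5*. It did so for 16 of the 22 genes that averaged 5 CPM or more, but for 1 of the 13 that averaged less than 2 CPM. Differences of 1.4-fold were therefore not excluded for the other 18 genes. Grouped by coupling, the median log2 fold change was -0.05 for the 8 Gs receptors, 0.00 for the 12 tested Gi/o receptors, 0.05 for the 9 Gq/11 receptors and -0.05 for the 9 tested channel subunits.

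The machinery around the receptors was read from lists of 86 genes, and 0 of the 78 tested were called. At an unadjusted p under 0.05 there were 11, or 14.1% against 10.1% of all genes, and 8 had groups that did not overlap, or 10.3% against 6.95%, with 7 lower and 1 higher. Messages of the synthesis enzymes were scarce: *Tph2*, which makes serotonin, was at 1.47 CPM, *Th* at 0.473 and *Dbh* at 0.655, and *Chat*, which makes acetylcholine, was too low to test at 0.0855 CPM, as were the reuptake transporter genes *Slc6a2*, *Slc6a3* and *Slc6a4*. *Ddc*, which decarboxylates the precursors of dopamine and serotonin, was at 5.81 CPM ± 0.309 in homecage and 4.44 CPM ± 0.697 in SOR (SD, n = 4 each), with no overlap and a log2 fold change of -0.39 (adjusted p = 0.324, edgeR). *Maoa*, which degrades serotonin and noradrenaline, was at 29.3 CPM ± 0.771 and 25.6 CPM ± 1.28 (SD, n = 4 each), also without overlap, at -0.20 (adjusted p = 0.225, edgeR). *Bche*, a cholinesterase, had -0.23 without overlap, whereas *Ache*, the synaptic cholinesterase, had -0.02 (interval -0.16 to 0.11).

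Downstream of the receptors, *Gna14*, a Gq/11-family α subunit, had a log2 fold change of -0.38 and *Plcb4*, a phospholipase C that such subunits activate, -0.24, both without overlap and with adjusted p of 0.404 and 0.335 (edgeR). *Rgs19*, which speeds the turn-off of Gi/o subunits, was the 1 gene of the lists with all SOR libraries above homecage, at 11.7 CPM ± 0.327 and 14.1 CPM ± 1.70 (SD, n = 4 each) and a log2 fold change of 0.28 (adjusted p = 0.329, edgeR). *Rgs9* and *Rgs10* lay below without overlap, at -0.16 and -0.13. The remaining genes with an unadjusted p under 0.05 were *Adcy6* (0.17), *Arrb2* (-0.16), *Rgs20* (-0.26), *Caly* (-0.10) and *Ly6h* (-0.12), all with overlapping groups. None of these differences passed the adjusted threshold.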

How the data were processed

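RNA from the dorsal hippocampus of 4 homecage and 4 SOR mice was sequenced as rRNA-depleted libraries from a stranded kit (the labels also say polyA RNA). The authors' methods name STAR and featureCounts, which gives whole counts, whereas the deposited table is labeled as a tximport summary and holds estimated counts per gene, of which 52.6% are not whole. The build was mm10. Which tool made the estimates and its strand setting were not given in the sources used here, so reads of antisense partners cannot be fully told apart. The other modalities were not used.

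Counts were rounded, filtered with filterByExpr and scaled by upper-quartile factors, leaving 22018 genes, and tested with edgeR 4.0.16 (R 4.3.3; quasi-likelihood F test, Benjamini-Hochberg adjustment, called at an adjusted p under 0.05). Intervals are 95% from the same fit. CPM used the scaled library sizes; exon lengths came from GENCODE M21 for GRCm38. Single genes were also compared by an exact permutation test on log2(CPM + 0.1), in Python 3.11.15 with scipy 1.17.1. The biological coefficient of variation was 14.1%. On simulated counts for SOR against homecage with 200 changed genes among 21661 tested, 42% of 1.5-fold and 70% of 2-fold changes were recovered, with 8 false calls of 120. Replicate numbers did not pair the samples. No 2 replicates agreed within sampling noise, and p-values measure the spread between these samples.

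The receptor genes, pathway lists and marker lists were chosen with earlier results of these data known. Values per sample are given for receptor genes with an unadjusted p under 0.05, those whose groups do not overlap and the highest per kb of each transmitter, and pathway genes are named where the unadjusted p was under 0.05. *Htr2c*, *Drd2*, the *Chrm4* to *Chrm2* and *Drd1* to *Drd5* ratios, *Rgs9*, *Rgs10* and the other examples were singled out after their values were seen. One antisense gene matching the symbols was left out. The values of 1 receptor gene and 1 pathway gene are not reported here, though both were counted. The fit was repeated with other scaling (TMM, RLE, library size), 2 other filters, unrounded counts, the likelihood ratio test, DESeq2 1.42.0, limma-voom (limma 3.58.1), 1 to 3 RUVs factors, a replicate block and leaving out each sample. The RUVs fits used the likelihood ratio test in place of the quasi-likelihood test.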

Additional observations from a re-analysis of the deposited data

Results flagged for a closer look

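A sample far from the other 3 of its group was found in 5 of 76 groups of receptor gene values by Dixon's test, which chance alone would give in about 1 of 20 groups. *Drd1* in homecage replicate 4 was at 5.09 CPM where the other homecage libraries lay at 6.02 to 6.14 CPM. *Htr2a* in the same library was at 16.8 CPM against 15.1 to 15.4 CPM. *Chrm3* in homecage replicate 3 was at 42.5 CPM against 45.5 to 46.0 CPM. *Chrna7* stood low in 1 library of each group, at 18.5 CPM in homecage replicate 1 against 21.4 to 22.0 CPM and at 19.3 CPM in SOR replicate 3 against 21.1 to 21.5 CPM. No cause was tested.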

How the results depend on the processing

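In every other way of processing the counts, 0 receptor genes and 0 genes of the surrounding lists were called; the lowest adjusted p of a receptor gene was 0.0532, for *Drd1* with DESeq2. *Drd1* had an unadjusted p under 0.05 in all 13 other fits to all samples and all 8 fits without 1 sample, and *Chrm4* in all 13 and in 6 of 8, with adjusted p of 0.321 to 0.625 in the latter. Both genes were singled out by their p in the main fit, and these fits reuse the same libraries, so they are not separate support. The number of genes called over the whole table, 68, was 38 when a fold above 1.4 was also required and 30 to 55 without 1 sample. It was 214 with the likelihood ratio test, 435 with DESeq2, and 304, 497 and 501 with 1, 2 and 3 RUVs factors. The RUVs fits also used the likelihood ratio test, so both the test and the factors differed from the main fit. Calls higher in SOR were 88.2% of 68 and 67.8%, 72.2%, 65.5%, 60.8% and 58.1% under those 5 tests. The replicate numbers correlated at -0.0837 to 0.073 for equal numbers and -0.2 to 0.194 for unequal ones, with 0 homecage samples closest to their own number, so the pairing is in name only; with the replicate block 40 genes were called. The count of receptor genes whose groups do not overlap was 2 to 4 without 1 sample (5.26% to 10.5%, beside 9.44% to 11.1% of all genes), with 4 without SOR replicate 4 (10.5% beside 10.8%), when *Htr1b* and *Chrna1* joined *Drd1* and *Chrm4*. The sign of the fold change held for 24 of 38 receptor genes, and the 14 that changed had absolute log2 fold changes of at most 0.30; the cause was not tested. *Adra2a* had 0.018 (TMM), 0.019 (RLE), 0.0051 (library size), 0.0018 (more than 5 counts in 2 samples), 0.00058 (likelihood ratio), 0.022 (DESeq2), 0.037 (limma-voom), 0.027 and 0.021 (2 and 3 RUVs factors) and 0.011 (replicate block). *Htr1f* had 0.0027, 0.0038 and 0.0023 and *Chrna7* 0.012, 0.013 and 0.012 with TMM, RLE and DESeq2. With 2 and 3 RUVs factors *Htr2b* had -0.002 and -0.0073 and *Adra2c* -0.0029 and -0.0058. With the choroid plexus covariate, chosen after seeing the data, *Htr1f* had 0.021, *Htr2b* -0.054, *Adra2c* -0.0039, *Chrna7* 0.02 and *Chrnb1* -0.086. Without 1 sample the ranges were -0.019 to 0.04 (*Htr1a*), -0.12 to 0.1 (*Htr1f*), -0.079 to 0.016 (*Htr2a*), -0.079 to 0.15 (*Htr2b*), -0.023 to 0.14 (*Htr5b*), -0.027 to 0.8 (*Drd4*), -0.1 to 0.0083 (*Drd5*), -0.067 to 0.13 (*Adra1a*), -0.27 to 0.0087 (*Adra1b*), -0.089 to 0.17 (*Adra2a*), -0.028 to 0.027 (*Adra2c*), -0.1 to 0.019 (*Chrna5*), -0.063 to 0.027 (*Chrna7*) and -0.064 to 0.21 (*Chrnb1*). The 11 untested genes were too low to compare; under 2 CPM the spread between samples was often beyond counting error (*Drd2* 32.2% beside 10.2%, *Chrm5* 24.5% beside 10.2%).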
